A study of Homo sapiens with 20 samples.

Results

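The autophagy and lysosome genes described here are 37 listed genes among the 58288 genes of the count tables, taken by their symbol: MAP1LC3A, MAP1LC3B, GABARAP, GABARAPL1, GABARAPL2, SQSTM1, NBR1, OPTN, ULK1, ULK2, ATG2A, ATG3, ATG4A, ATG4B, ATG5, ATG7, ATG9A, ATG10, ATG12, ATG13, ATG14, ATG16L1, BECN1, WIPI1, WIPI2, TFEB, TFE3, LAMP1, LAMP2, CTSB, CTSD, HEXA, GLA, NEU1, MCOLN1, ATP6V1H and ATP6V0D1. They were measured by RNA-seq of polyadenylated RNA in DOHH2 and U2932, a pair of human cell lines that the labels call DLBCL lines, DLBCL being diffuse large B cell lymphoma. Cells received a compound labelled TK, which the labels do not describe further, or DMSO, its solvent control, for 8 h or 18 h. Each is a single line, so that a difference between them is one between 2 lines and not between kinds of lymphoma.

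The 20 libraries fall into 8 groups. DOHH2 has 3 libraries with DMSO at 8 h, 3 with TK at 8 h, 2 with DMSO at 18 h (replicates 1 and 3) and 3 with TK at 18 h. U2932 has 3 with DMSO at 8 h, 2 with TK at 8 h (replicates 1 and 2), 1 with DMSO at 18 h (replicate 2) and 3 with TK at 18 h. Nothing says that replicates came from separate cultures, so the p-values measure the spread between these libraries, which may be technical. For the single U2932 library with DMSO at 18 h, the spread of the other groups was assumed. Libraries held 30363255 to 52275430 counts in genes. Replicate 1 of DOHH2 with TK at 18 h stood apart by its share of counts without a unique alignment, 56.6%, and results that rest on it are also given without it. As a check of the cell type, 6 B cell markers summed to 806 to 1480 CPM (counts scaled to a common library size) in DOHH2 and 2350 to 3010 in U2932, while 6 myeloid and macrophage markers summed to at most 0.979 and 2.59 CPM, and 4 T cell markers to at most 0.599 and 1.70. No marker of these lists was at 0 in every library, apart from 1 T cell marker in DOHH2. The 3 epithelial markers summed to 21.2 to 33.1 CPM in U2932 and at most 0.713 in DOHH2, and the 3 fibroblast markers to 5.06 to 30.8 CPM in DOHH2 and at most 4.77 in U2932. EPCAM alone was at 21 to 32.2 CPM in U2932, with KRT8 and KRT19 at most 1.06 and 0.652, and COL1A1 alone at 4.96 to 29.2 CPM in DOHH2, with COL1A2 and DCN at most 1.40 and 0.203. DCN was higher in U2932, at 0.207 to 1.53 CPM. The part of either list in the results was not tested.

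Autophagy encloses cytoplasm in a double membrane, the phagophore, which closes into an autophagosome and fuses with the lysosome, where hydrolases break the content down. The ULK1 kinase complex starts the process, the BECN1 lipid kinase complex marks the membrane, and a ubiquitin-like machinery (ATG3, ATG4A, ATG4B, ATG5, ATG7, ATG10, ATG12, ATG16L1) attaches the ATG8 proteins to it. ATG8 proteins in turn hold cargo receptors such as SQSTM1 (p62), and the factors TFEB and TFE3 switch on many genes of the pathway through promoter sites built around CACGTG. A transcript level says nothing about the flux of cargo through the pathway.

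RefSeq promoter windows (GRCh38.p14, 250 bases before to 50 bases after a start) were held for 32 of the 37 members, 40 windows in all. No window was held for MAP1LC3A, LAMP2, CTSB, HEXA and ATP6V1H. The letters CACGTG, which read the same on both strands, were found in 7 of the 40 windows (17.5%) against 7.26% of 35116 promoter windows of that length. The windows were those of ATG3, ATG14, ATP6V0D1, CTSD, LAMP1, MCOLN1 and NEU1. The longer TCACGTGA, which contains CACGTG, was found in 4 (10%, those of ATG3, ATP6V0D1, LAMP1 and MCOLN1) against 0.98%. In 156 windows of further genes of autophagy, lysosome and mTORC1 control, described below, the shares were 16% and 7.05%, so neither was particular to the members. The 4 windows below are shown because their genes took each possible course between the lines: LAMP1 and CTSD were higher in DOHH2, ATG3 was lower and MCOLN1 passed the test in no comparison of the lines with all libraries in the fit. Capitals mark CACGTG, which the LAMP1 window holds 6 times.
LAMP1: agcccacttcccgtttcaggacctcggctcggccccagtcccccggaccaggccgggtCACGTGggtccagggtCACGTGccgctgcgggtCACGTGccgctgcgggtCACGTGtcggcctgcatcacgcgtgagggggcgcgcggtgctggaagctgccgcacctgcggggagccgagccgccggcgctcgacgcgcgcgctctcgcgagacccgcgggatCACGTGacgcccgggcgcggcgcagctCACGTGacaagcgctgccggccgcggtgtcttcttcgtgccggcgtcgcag
CTSD: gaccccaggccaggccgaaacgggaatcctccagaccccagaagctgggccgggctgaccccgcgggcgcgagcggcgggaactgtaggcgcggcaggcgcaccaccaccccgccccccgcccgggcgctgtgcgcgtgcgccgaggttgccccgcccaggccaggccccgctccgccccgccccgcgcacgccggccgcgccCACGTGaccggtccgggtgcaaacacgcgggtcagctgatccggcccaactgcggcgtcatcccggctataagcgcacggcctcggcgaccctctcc
ATG3: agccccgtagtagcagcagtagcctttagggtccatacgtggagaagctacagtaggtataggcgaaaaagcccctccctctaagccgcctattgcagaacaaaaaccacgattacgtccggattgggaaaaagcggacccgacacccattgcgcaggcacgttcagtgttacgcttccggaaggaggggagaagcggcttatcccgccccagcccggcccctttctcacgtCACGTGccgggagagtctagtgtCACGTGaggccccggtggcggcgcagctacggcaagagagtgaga
MCOLN1: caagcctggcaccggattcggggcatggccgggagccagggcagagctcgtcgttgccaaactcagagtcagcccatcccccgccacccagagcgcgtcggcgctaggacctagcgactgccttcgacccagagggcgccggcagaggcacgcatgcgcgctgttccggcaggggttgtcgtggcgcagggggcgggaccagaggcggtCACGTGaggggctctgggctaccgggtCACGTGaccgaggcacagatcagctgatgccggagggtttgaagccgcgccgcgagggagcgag
They lie at chr13:113296989-113297288 (plus strand), chr11:1763878-1764177 (minus), chr3:112561913-112562212 (minus) and chr19:7522374-7522673 (plus). A match of letters is a description of these windows and not a bound site.

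Levels are CPM after scaling by TMM, the trimmed mean of M values. Of the 37 members, 36 passed the minimum of 0.288 CPM in at least 3 libraries and were tested. MAP1LC3A, an ATG8 protein, did not: it lay between 0 and 0.178 CPM in all 20 libraries. Compared between genes per kilobase of exon, the highest medians in DOHH2 were those of LAMP1 (25.6 CPM per kb), GABARAPL2 (21.1) and WIPI2 (18.0), and in U2932 those of GABARAPL2 (32.1), MAP1LC3B (28) and GLA (23.5). Other than MAP1LC3A, the lowest was ULK2 in both lines (0.0248 and 0.00484 CPM per kb), and GABARAPL1 was next in DOHH2 (0.297) but not in U2932 (3.90). ULK1 ranked 13 of 37 in DOHH2 and 32 of 37 in U2932.

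**Figure D1:**
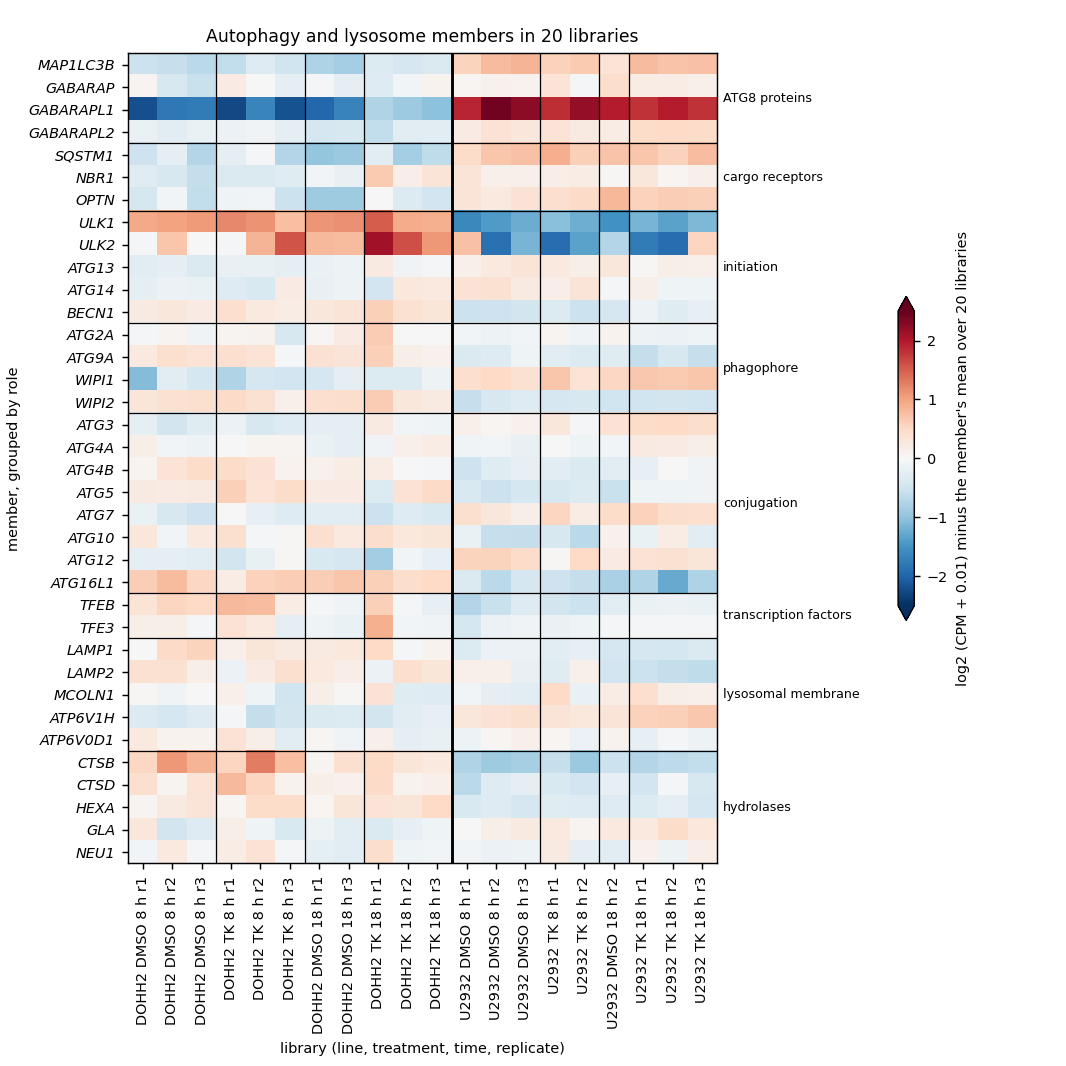
Each row is 1 of the 36 tested members, grouped by role, and each column 1 of the 20 libraries; colour is log2 (CPM + 0.01) minus the member's mean over the libraries. The thick line separates DOHH2 from U2932: GABARAPL1 is low in all 11 DOHH2 libraries and ULK1 in all 9 U2932 libraries.

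The lines differed in most of the members, with different directions in different roles. In DMSO at 8 h, 13 of 36 members were higher in DOHH2 and 13 lower (edgeR quasi-likelihood test, Benjamini-Hochberg adjusted p under 0.05 over 16478 genes). Of all genes tested, 33% were higher and 34.9% lower, so the members' shares were near the background. In RNA from whole cultures, fewer cells with a transcript and less of it per cell cannot be told apart. The median log2 change of the members was 0.15, against -0.03 for all genes. Lower in DOHH2 were 3 of 4 ATG8 genes and 3 of 3 cargo receptors, with no member of either role higher. Higher in DOHH2 were 3 of 5 lysosomal hydrolases, with none lower. The remaining roles were mixed: of 5 initiation and nucleation genes 2 were higher and 2 lower, of 4 phagophore genes 2 and 1, of 8 conjugation genes 4 and 3, of 5 lysosomal membrane and V-ATPase genes 1 and 1, and of 2 transcription factors 1 was higher.

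The same comparison in the TK libraries, which share no library with the first, gave 14 members higher and 12 lower at 8 h (30.7% and 32.1% of all genes) and 13 higher and 11 lower at 18 h (34.2% and 34.9%). Without DOHH2 TK 18 h replicate 1, 23 of the 36 members were called at 18 h, against 24 with it: the calls of ATG2A, ATG10 (log2 change 0.36, adjusted p = 0.106) and CTSD (0.40, adjusted p = 0.0512) were lost, and ATG5 (0.51, adjusted p = 0.000215) and MCOLN1 (-0.55, adjusted p = 0.0126) were called. In all 3 comparisons ULK1, ATG9A, ATG10, ATG16L1, BECN1, WIPI2, LAMP1, CTSB, CTSD and HEXA were higher in DOHH2 (10 members; 24.6% of all genes). MAP1LC3B, GABARAPL1, GABARAPL2, SQSTM1, OPTN, ATG3, ATG7, ATG12, WIPI1 and ATP6V1H were lower in all 3 (10 members; 25.9% of all genes). GABARAP, ATG4A, TFE3, NEU1, MCOLN1 and ATP6V0D1 passed in none (6 members; 16.3% of all genes). No member was called in opposite directions (1.17% of all genes). Over all libraries, whatever the treatment, 9 members lay higher in each of 11 DOHH2 libraries than in any of 9 U2932 libraries (22.7% of all genes), and 8 lay lower in each (24.1%).

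**Figure D2:**
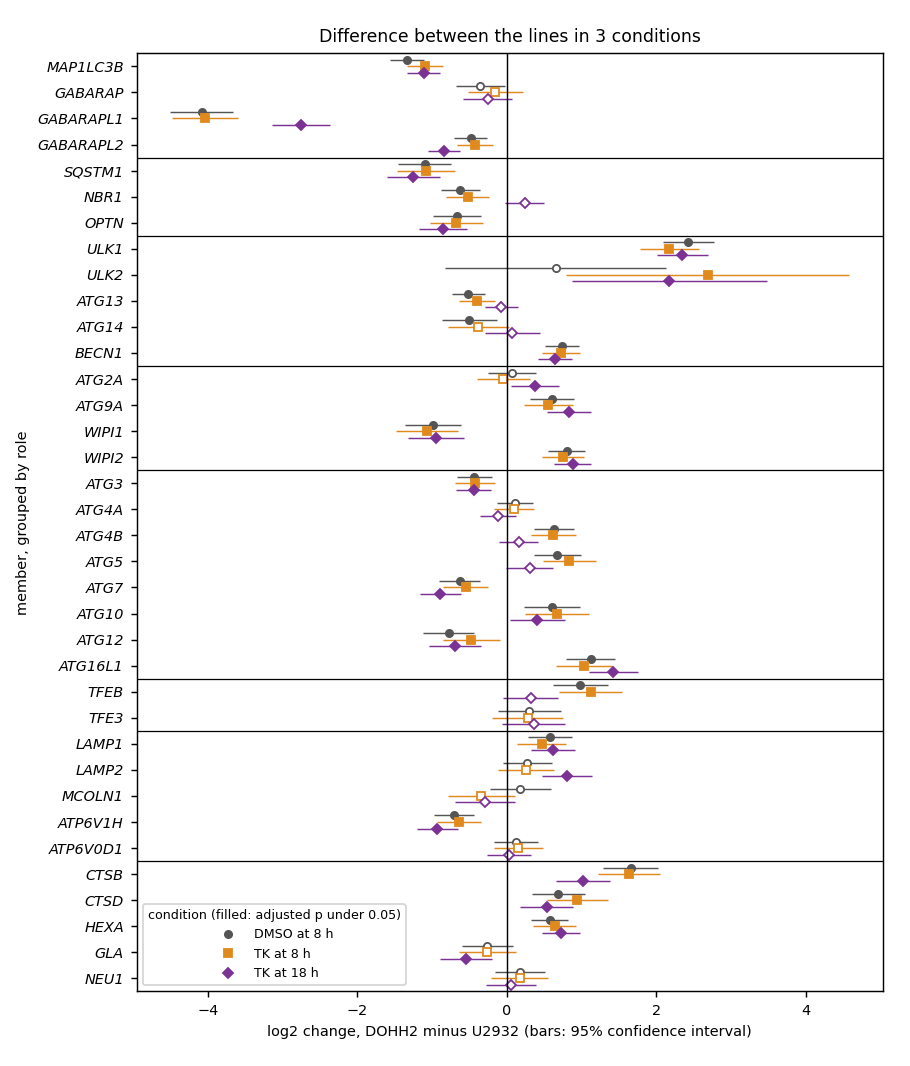
Log2 change, DOHH2 minus U2932, of the 36 tested members (rows, by role) with 95% confidence intervals; circles are DMSO at 8 h, squares TK at 8 h and diamonds TK at 18 h, and filled symbols passed the test. GABARAPL1 lies farthest to the left, at -4.08, -4.04 and -2.75, and NBR1 moves from -0.62 and -0.52 to 0.24.

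Among the ATG8 proteins, which coat the phagophore, GABARAPL1 (chr12:10212458-10223130, plus strand, GENCODE v29 on GRCh38) had the largest difference. It was at 0.879, 1.18 and 1.21 CPM in the 3 DOHH2 libraries with DMSO at 8 h and at 15.2, 21.6 and 19.2 CPM in those of U2932. Every DOHH2 library of the series, at 0.846 to 2.40 CPM, was below every U2932 library, at 14.3 to 21.6 CPM. The fitted level was 16.9-fold lower in DOHH2 (log2 change -4.08, SE 0.20, adjusted p = 2.3e-13).

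MAP1LC3B encodes LC3B, the ATG8 protein most used as an autophagosome marker. Its levels were 62.6, 61.1 and 57.0 CPM in DOHH2 and 134, 158 and 165 CPM in U2932 with DMSO at 8 h, with no overlap, and 2.53-fold lower in DOHH2 (log2 change -1.34, SE 0.11, adjusted p = 6.38e-10). GABARAPL2 was at 68.4, 63.8 and 68.0 CPM against 89.0, 97.9 and 92.8 CPM (log2 change -0.48, adjusted p = 0.000405), and its difference was -0.84 with TK at 18 h. GABARAP, the fourth tested, was at 22.2 to 34.3 CPM against 34.0 to 35.1 CPM, groups that overlap (log2 change -0.35, adjusted p = 0.0523). ATG8 genes are close in sequence to one another and to pseudogenes, and how the counting split reads between such copies was not tested.

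The cargo receptors bind ubiquitin-tagged material and tether it to ATG8 proteins. SQSTM1 was at 45.5, 55.1 and 38.9 CPM in DOHH2 and 88.8, 104 and 107 CPM in U2932 with DMSO at 8 h. That was 2.14-fold lower in DOHH2 (log2 change -1.10, SE 0.17, adjusted p = 9.06e-06), and no library of either line overlapped with the other line (33.0 to 62.2 against 88.8 to 122 CPM). OPTN was at 12.4, 16.1 and 11.1 CPM against 21.2, 20.1 and 21.7 CPM (log2 change -0.67, adjusted p = 0.000647), again apart in all libraries. NBR1 was at 40.9, 38.5 and 33.4 CPM against 63.1, 55.3 and 55.5 CPM (log2 change -0.62, adjusted p = 0.000181). It was the one receptor that did not stay lower: with TK at 18 h its change was 0.24 (adjusted p = 0.0965), with DOHH2 libraries at 56.8 to 79.5 CPM and U2932 libraries at 52.6 to 61.6 CPM.

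Initiation and nucleation genes were mixed. ULK1 (chr12:131894651-131923167, plus strand), the kinase at the top of the pathway, was at 82.3, 85.7 and 89.4 CPM in DOHH2 and 13.9, 16.0 and 18.1 CPM in U2932 with DMSO at 8 h. It was 5.36-fold higher in DOHH2 (log2 change 2.42, SE 0.16, adjusted p = 4e-11), and the lines stayed apart in all libraries, at 71.8 to 121 against 13.9 to 20.6 CPM. BECN1, the scaffold of the nucleation complex, was at 69.9, 72.6 and 68.7 CPM against 41.4, 41.5 and 43.4 CPM (log2 change 0.74, adjusted p = 4.34e-06).

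The other initiation genes were less uniform. ATG13, a partner of ULK1 in the kinase complex, and ATG14, a partner of BECN1, were lower in DOHH2 with DMSO at 8 h, with log2 changes of -0.52 and -0.50 (adjusted p = 0.000221 and 0.016). At 18 h with TK these were -0.07 and 0.07, neither past the threshold. ULK2, the paralog of ULK1, was nearly silent: its groups held 19 and 11 counts in all with DMSO at 8 h, 27 and 3 with TK at 8 h, and 53 and 11 with TK at 18 h, DOHH2 first. The ratios of the summed counts per library total were 1.47 (exact 95% interval 0.666 to 3.43), 6.25 (1.92 to 32.2) and 4.68 (2.42 to 9.94), intervals that cover counting error only. ULK2 met the filter on low values in 4 libraries, all of DOHH2 with TK, and was kept only through them. It is 1 of the 14 and of the 13 members counted as higher in DOHH2 with TK at 8 h and 18 h, and those calls are no evidence of a difference.

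**Figure D3:**
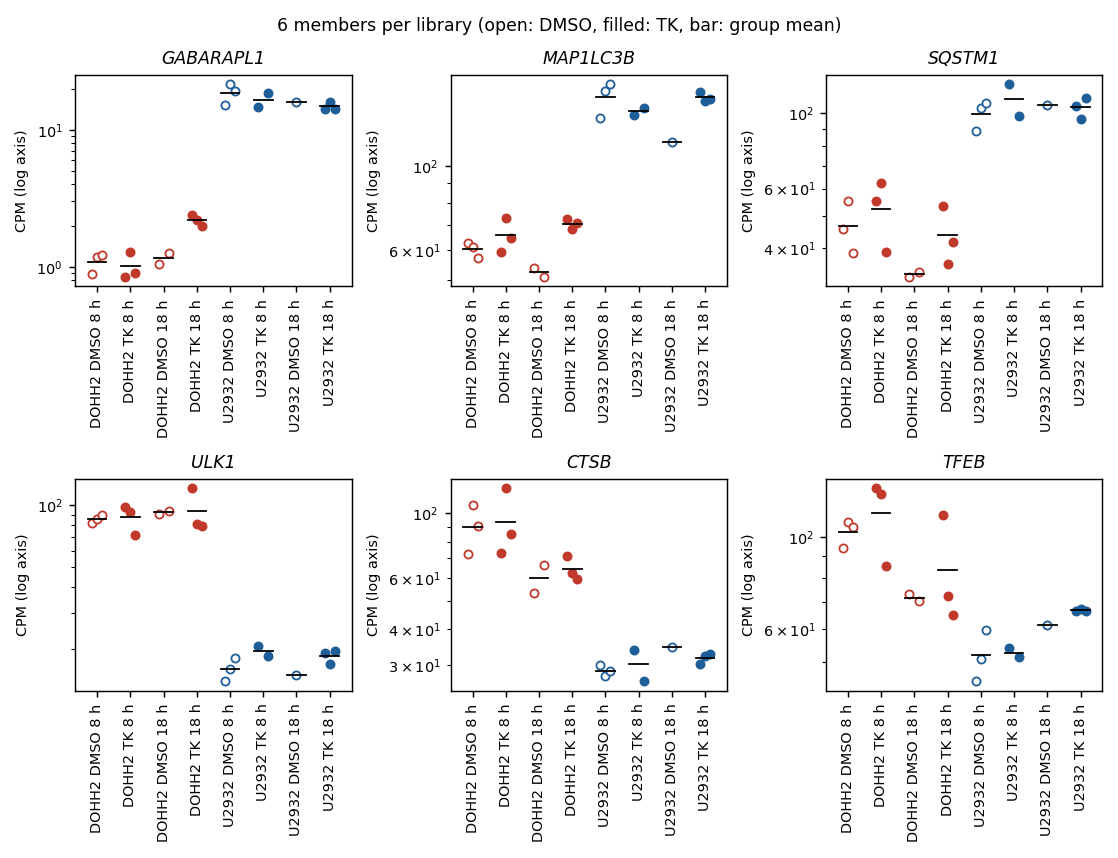
CPM on a log axis for 6 members in each library by group (open DMSO, filled TK, bar the group mean; DOHH2 red, U2932 blue). GABARAPL1, MAP1LC3B and SQSTM1 are lower and ULK1 and CTSB higher in every DOHH2 library than in any U2932 library, while TFEB overlaps with TK at 18 h.

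Genes of the phagophore membrane fell on both sides. WIPI2, which reads the lipid mark and recruits ATG16L1, was at 152, 161 and 163 CPM in DOHH2 and 82.2, 93.3 and 98.4 CPM in U2932 with DMSO at 8 h (log2 change 0.80, SE 0.12, adjusted p = 5.2e-06). Its paralog WIPI1 went the other way, at 2.64, 4.63 and 4.10 CPM against 7.46, 7.91 and 7.32 CPM (log2 change -0.99, SE 0.18, adjusted p = 6.35e-05). Both differences held without overlap over all 20 libraries. ATG9A, a lipid scramblase of the vesicles that seed the phagophore, was at 69.8, 77.8 and 74.7 CPM against 45.4, 46.9 and 54.1 CPM (log2 change 0.60, adjusted p = 0.000716). ATG2A, a lipid transfer protein, differed by 0.07 (adjusted p = 0.699) with DMSO at 8 h and by 0.37 (adjusted p = 0.0351) with TK at 18 h. In that group its DOHH2 libraries were at 71.2, 46.4 and 46.3 CPM, the highest being replicate 1, and without that library the difference was 0.14 (adjusted p = 0.347).

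The conjugation genes were split within the same enzyme cascade. ATG16L1, which directs the ATG12-ATG5 conjugate to the membrane, was at 15.1, 17.2 and 14.1 CPM in DOHH2 and 7.69, 6.19 and 7.4 CPM in U2932 with DMSO at 8 h (log2 change 1.12, SE 0.16, adjusted p = 2.26e-06). ATG12 was at 36.2, 36.7 and 35.4 CPM against 63.3, 63.5 and 59.0 CPM (log2 change -0.78, SE 0.17, adjusted p = 0.000312), although the lines overlapped once the other groups were counted. ATG5, the partner of ATG12, was higher in DOHH2 by 0.68 (adjusted p = 0.000463), and ATG10, the E2-like enzyme that joins them, by 0.60 (adjusted p = 0.00564). The E1-like ATG7 and the E2-like ATG3, which prepare ATG8 proteins for lipid attachment, were lower in DOHH2, with log2 changes of -0.63 (adjusted p = 0.000295) and -0.43 (adjusted p = 0.00215). With TK at 18 h ATG7 was at 14.9, 17.3 and 16.7 CPM against 32.5, 29.3 and 28.9 CPM (log2 change -0.89, adjusted p = 5.47e-06). The ATG4 proteases cut ATG8 proteins before attachment and again on release. ATG4B was higher in DOHH2 at 8 h (0.63, adjusted p = 0.000202) but not called with TK at 18 h (0.16, adjusted p = 0.286), and ATG4A was not called in any of the 3 comparisons.

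TFEB was at 94.2, 109 and 106 CPM in DOHH2 and 45.1, 51.0 and 59.9 CPM in U2932 with DMSO at 8 h, 1.98-fold higher (log2 change 0.98, SE 0.18, adjusted p = 5.65e-05). The difference was 1.12 with TK at 8 h (adjusted p = 7.26e-05). With TK at 18 h it was 0.32 (adjusted p = 0.11), where DOHH2 libraries at 113, 72.4 and 65.0 CPM and U2932 libraries at 66.6, 67.2 and 66.4 CPM overlapped. TFE3 did not pass in any of the 3, with changes of 0.30, 0.28 and 0.36. With TK at 18 h it was at 72.7, 37.1 and 36.7 CPM in DOHH2 and 37.7, 38.5 and 38.2 CPM in U2932. The highest DOHH2 library of that group was replicate 1 for both TFEB and TFE3, and neither gene was called without it.

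Of the lysosomal hydrolases, the cysteine protease CTSB (cathepsin B) differed most. It was at 72.3, 107 and 90.7 CPM in DOHH2 and 30.0, 27.4 and 28.5 CPM in U2932 with DMSO at 8 h, 3.15-fold higher (log2 change 1.66, SE 0.17, adjusted p = 4.43e-08). With TK at 18 h it was at 71.3, 62.2 and 59.5 CPM against 30.2, 32.1 and 32.8 CPM (log2 change 1.02, adjusted p = 2.55e-05), and no library of the lines overlapped. CTSD, the aspartic protease cathepsin D, was higher in DOHH2 by 0.69 with DMSO at 8 h (adjusted p = 0.00135) and by 0.94 with TK at 8 h, at 78.1, 64.4 and 47.3 CPM against 33.9 and 31.9 CPM. HEXA, a subunit of beta-hexosaminidase, was higher by 0.57 (adjusted p = 0.000304). GLA, the alpha-galactosidase, was not called at 8 h and was lower in DOHH2 with TK at 18 h (log2 change -0.54, adjusted p = 0.00608). The sialidase NEU1 was not called in any of the 3.

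On the lysosomal membrane, the abundant glycoprotein LAMP1 was higher in DOHH2 (127, 175 and 186 against 99.8, 113 and 114 CPM with DMSO at 8 h, log2 change 0.58, adjusted p = 0.00104). LAMP2, its relative, was called in 1 of the 3 comparisons, with TK at 18 h (log2 change 0.80, adjusted p = 0.000167), at 50.5, 75.1 and 69.4 CPM against 38.7, 37.1 and 36.2 CPM. The V-ATPase acidifies the lysosome. Its peripheral subunit ATP6V1H was lower in DOHH2, at 26.2, 24.5 and 26.6 against 40.3, 42.4 and 43.7 CPM (log2 change -0.71, SE 0.13, adjusted p = 6.13e-05). The membrane sector subunit ATP6V0D1 and the calcium channel MCOLN1 were not called in any of the 3, MCOLN1 with the exception given above for the fit without replicate 1.

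Beyond the 37, 144 further genes of autophagy, lysosome and mTORC1 control were listed, of which 137 were tested. Between the lines with DMSO at 8 h, 61 of these were higher in DOHH2 and 38 lower, with a median log2 change of 0.17, where 33% of all genes were higher and 34.9% lower. Of the 35 lysosomal hydrolases and their cofactors, 22 were higher and 5 lower. By the naming rule, SCARB2, the carrier of beta-glucocerebrosidase to the lysosome, was at 125 to 134 CPM in DOHH2 and 0.373 to 0.740 CPM in U2932 (log2 change 7.95, adjusted p = 1.69e-16). LAMP3 (log2 change 5.89), the alpha-glucosidase GAA (4.05) and DRAM1 (3.85) were also higher in DOHH2. DEPTOR, an inhibitor of mTOR (-2.30), the mitophagy receptor BNIP3L (-2.06), the V-ATPase subunit ATP6V1C1 (-1.85) and the lipid kinase PIK3C3 (-1.82) were lower. The groups did not overlap for any of these 8 genes, which was so for 106 of the 137 in all. Overlap was not counted over all genes here.

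TK against DMSO asked whether the compound altered these genes within a line. At 8 h no member passed the edgeR test in DOHH2 (0% of all genes), and none had an unadjusted p under 0.05, against 3.02% of all genes. DESeq2 and voom with quality weights also called none (0% of all genes each). Without ULK2, which has few counts, the changes ran from -0.17 to 0.29 on the log2 scale and their 95% intervals reached from -0.59 to 0.61. The 4 smallest p-values were those of GABARAP (0.29, unadjusted p = 0.0852), ATG5 (0.24), CTSD (0.23) and ATG7 (0.18), all with an adjusted p of 1. GABARAP was at 37.7, 33.0 and 28.2 CPM with TK and 34.3, 24.7 and 22.2 CPM with DMSO, groups that overlap.

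In U2932 at 8 h no member passed either (0% of all genes), none had an unadjusted p under 0.05 (1.67% of all genes), and DESeq2 and voom called none (0% each). Changes ran from -0.24 to 0.39 without ULK2, with intervals from -0.63 to 0.83. MCOLN1 had the smallest p (0.39, unadjusted p = 0.0882), at 20.6 and 13.0 CPM with TK and 13.9, 12.5 and 12.2 CPM with DMSO, where 1 of the 2 TK libraries was high. ULK1 (0.28), ATG12 (-0.24) and ULK2 (3 counts with TK and 11 with DMSO) followed. The TK effect at 8 h was not shown to differ between the lines for any member. No member passed in the edgeR test of that difference (0%), in DESeq2 (0%), in voom (0%) or at an unadjusted p under 0.05 (1.92% of all genes). MCOLN1 (-0.52), ULK2, MAP1LC3B (0.24) and ATG12 (0.31) had the smallest p-values.

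**Figure D4:**
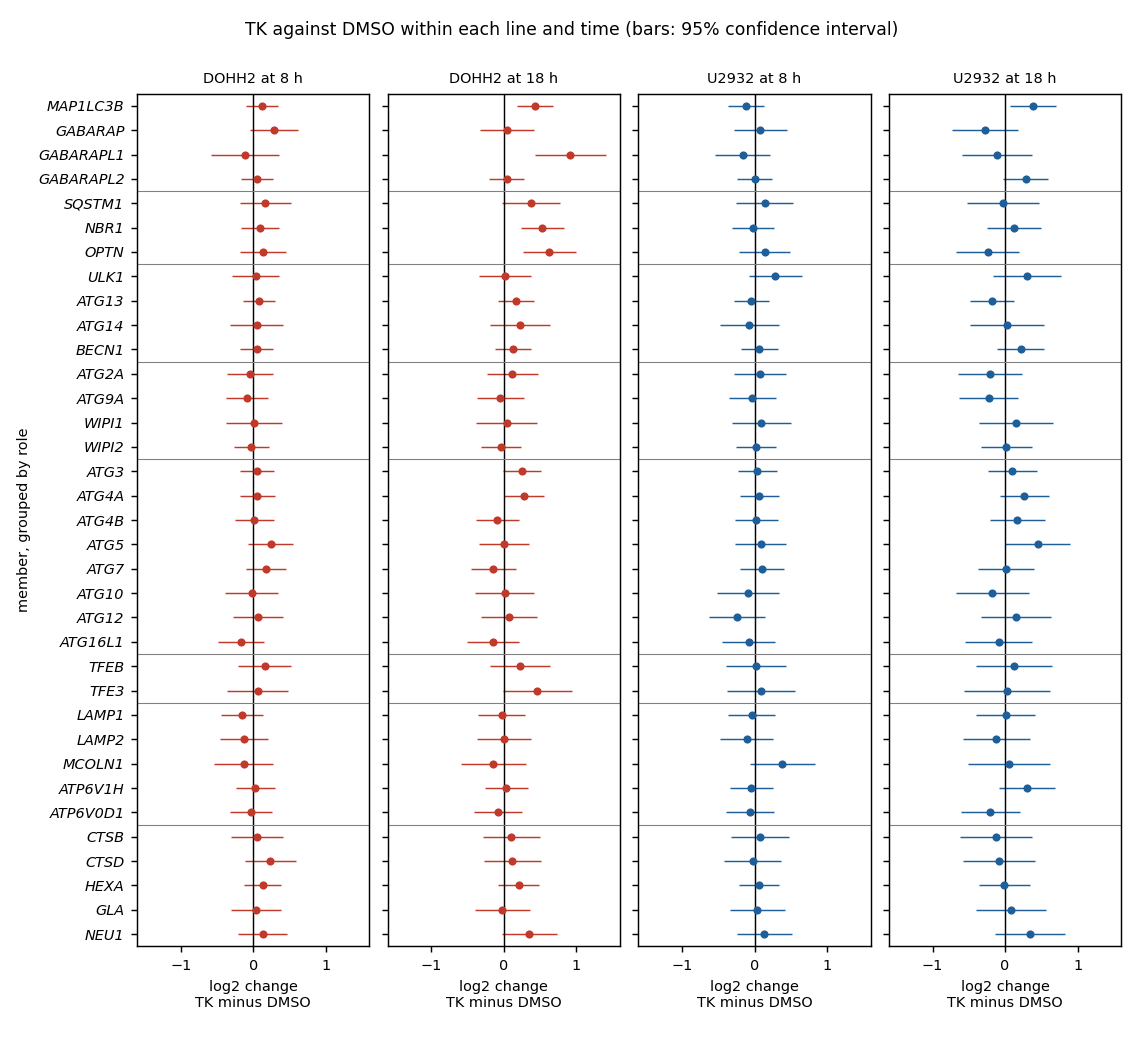
Log2 change, TK minus DMSO, with 95% confidence intervals for 35 members (rows, by role; ULK2 left out for its few counts) in each line and time. Intervals clear 0 for GABARAPL1, NBR1, OPTN, MAP1LC3B and ATG4A in DOHH2 at 18 h and for MAP1LC3B in U2932 at 18 h, none of them with an adjusted p under 0.05 in edgeR.

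At 18 h in DOHH2, no member passed the edgeR test (0.0728% of all genes), and 5 of 36 had an unadjusted p under 0.05, all higher with TK, against 8.56% of all genes. They were 2 ATG8 genes, 2 cargo receptors and ATG4A. GABARAPL1 was at 2.40, 2.18 and 2.0 CPM with TK and at 1.04 and 1.27 CPM with DMSO. All 3 TK libraries were above both DMSO libraries, a log2 change of 0.92 (SE 0.23, unadjusted p = 0.000779, adjusted p = 0.224). NBR1 was at 79.5, 56.8 and 63.7 against 48.2 and 44.3 CPM (log2 change 0.53, SE 0.14, adjusted p = 0.252). MAP1LC3B was at 72.2, 68.1 and 70.7 against 53.6 and 50.9 CPM (0.43, SE 0.12, adjusted p = 0.264). OPTN was at 16.8, 13.3 and 12.2 against 9.15 and 9.13 CPM (0.62, SE 0.18, adjusted p = 0.264). The groups of these 4 genes did not overlap, which was so for 14 of the 36 members in all and for 48 of 137 other pathway genes. Lack of overlap between these 3 and 2 libraries was not counted over all genes. Replicate 1, the library with many reads of no unique alignment, was the highest of the 3 TK libraries in each of the 4. Without it the changes were 0.85, 0.38, 0.41 and 0.48, with adjusted p-values of 0.209, 0.266, 0.211 and 0.3.

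The call depended on the tool. DESeq2 called 3 members, GABARAPL1, NBR1 and MAP1LC3B (adjusted p = 0.0398, 0.0351 and 0.0281; 0.73% of all genes), and voom with quality weights called 6 (12% of all genes). With DMSO at 8 h and 18 h pooled as the control, edgeR called 2, GABARAPL1 and NBR1 (adjusted p = 0.0114 and 0.00779; 0.376% of all genes). The median log2 change of the members was 0.08, against 0.02 for all genes. Of the 137 other pathway genes none passed edgeR, against 3 in DESeq2, 27 in voom and 1 with the pooled control. LAMP3 (0.81, adjusted p = 0.252) and VMP1, a scramblase of the endoplasmic reticulum needed for phagophore growth (0.46, adjusted p = 0.252), had the smallest p-values, and their adjusted p in DESeq2 was 0.0354 and 0.00957.

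In U2932 at 18 h no member passed (0.0182% of all genes), with 1 of 36 at an unadjusted p under 0.05 against 7.45% of all genes. DESeq2 and voom called none (0.5% and 1.43% of all genes). That member was MAP1LC3B, at 157, 149 and 151 CPM with TK and 116 CPM in the 1 DMSO library (log2 change 0.39, SE 0.15, adjusted p = 0.578). The 1 DMSO library at 18 h was below all 8 other U2932 libraries for MAP1LC3B, those with DMSO at 8 h included. ATG5 (0.45), GABARAPL2 (0.28) and ATP6V1H (0.30) followed, each higher in all 3 TK libraries than in the 1 DMSO library. With a control of 1 library such separation was common, in 26 of the 36 members and 91 of 137 other pathway genes. It was not counted over all genes. NAGLU and ATG16L2 led the other pathway genes, both lower with TK (-0.51 and -0.58, adjusted p = 0.547 and 0.465), and none of the 137 passed edgeR or DESeq2. Voom called 2 of them, and edgeR with DMSO of both times as control called 12 (10% of all genes).

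GABARAPL1, NBR1 and OPTN had TK effects of -0.11, 0.12 and -0.24 in U2932 at 18 h, where DOHH2 had 0.92, 0.53 and 0.62. The difference of the TK effect between the lines at 18 h was 1.03 for GABARAPL1 (95% interval 0.35 to 1.70), 0.86 for OPTN (0.30 to 1.42), 0.40 for NBR1 (-0.06 to 0.87) and 0.35 for ATG13 (-0.04 to 0.75). None of the 36 members passed that test (0.0243% of all genes, smallest adjusted p 0.689). GABARAPL1 and OPTN were the 2 with an unadjusted p under 0.05 (6.17% of all genes), and neither DESeq2 (0.14% of all genes) nor voom (0.71%) called a member.

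Time in culture with DMSO was compared in DOHH2. No member passed (0.631% of all genes), and 5 of 36 had an unadjusted p under 0.05 against 10.8% of all genes. DESeq2 called none (1.97% of all genes), and voom called 5 (11.1%). CTSB was at 53.2 and 66.6 CPM at 18 h and 72.3, 107 and 90.7 CPM at 8 h (log2 change -0.59, adjusted p = 0.217). OPTN was at 9.15 and 9.13 against 12.4, 16.1 and 11.1 CPM (-0.53, adjusted p = 0.22), TFEB at 72.9 and 70.1 against 94.2, 109 and 106 CPM (-0.52, adjusted p = 0.325), and SQSTM1 at 33.0 and 34.1 against 45.5, 55.1 and 38.9 CPM (-0.47, adjusted p = 0.358). All 4 lay lower at 18 h with no overlap, and NBR1 lay higher (0.30, adjusted p = 0.441). The OPTN libraries with DMSO at 18 h, the control for the TK comparison at that time, were thus the lowest of the 11 DOHH2 libraries. Lack of overlap was common between these groups of 2 and 3 libraries. It held for 19 of the 36 members and 53 of 137 other pathway genes, and was not counted over all genes.

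With TK, 2 of 36 members passed between 18 h and 8 h in DOHH2, both higher at 18 h (1.57% of all genes in either direction). NBR1 (chr17:43170481-43211689, plus strand) was at 79.5, 56.8 and 63.7 CPM at 18 h and 39.3, 39.2 and 41.3 CPM at 8 h, 1.67-fold higher (log2 change 0.74, SE 0.13, adjusted p = 0.00699). GABARAPL1 was at 2.40, 2.18 and 2.0 CPM against 0.846, 1.29 and 0.896 CPM, 2.16-fold higher (log2 change 1.11, SE 0.21, adjusted p = 0.0139). All 3 libraries at 18 h were above all 3 at 8 h for both genes, and 8 of the 36 members had no overlap between the times. That was not counted over all genes. Without DOHH2 TK 18 h replicate 1 the changes of NBR1 and GABARAPL1 were 0.59 (adjusted p = 0.0153) and 1.04 (adjusted p = 0.0284). With the DOHH2 libraries alone in the fit neither passed (adjusted p = 0.0552 and 0.0853), and without DOHH2 TK 8 h replicate 1 GABARAPL1 did not (adjusted p = 0.0656), which leaves 1 member called.

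The 4 members with the smallest p-values over time with DMSO had log2 changes with TK of -0.54 (CTSB, adjusted p = 0.103), -0.46 (TFEB, 0.171), -0.26 (SQSTM1, 0.437) and -0.04 (OPTN, 0.921), none past the threshold. Without DOHH2 TK 18 h replicate 1, TFEB was called lower at 18 h (-0.74, adjusted p = 0.0224). Of the other pathway genes, 4 of 137 passed in DOHH2 with TK (1.57% of all genes). That count was 0 with the libraries of one line only, without DOHH2 TK 8 h replicate 2 and without DOHH2 TK 18 h replicate 3, 1 without DOHH2 TK 8 h replicate 1 and 20 without DOHH2 TK 8 h replicate 3. It was 13 with no filter, 17 in DESeq2 (6.63% of all genes) and 46 in voom (24.7%). For the fits given here without a share, that of all genes was not counted. BNIP3L (12.5 to 23.2 CPM on average, log2 change 0.89, adjusted p = 0.0185) and the cholesterol exporter NPC1 (0.57, adjusted p = 0.0394) were higher at 18 h, while LAMP3 (-0.92, adjusted p = 0.019) and the cathepsin CTSH (-0.73, adjusted p = 0.0387) were lower. Without DOHH2 TK 18 h replicate 1 the change of NPC1 was 0.39 (adjusted p = 0.0893) and the other 3 passed (adjusted p = 0.00589 to 0.0413). BNIP3L was already at 26.8 and 18.1 CPM with DMSO at 18 h, and LAMP3 at 7.51 and 7.09 CPM.

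**Figure D5:**
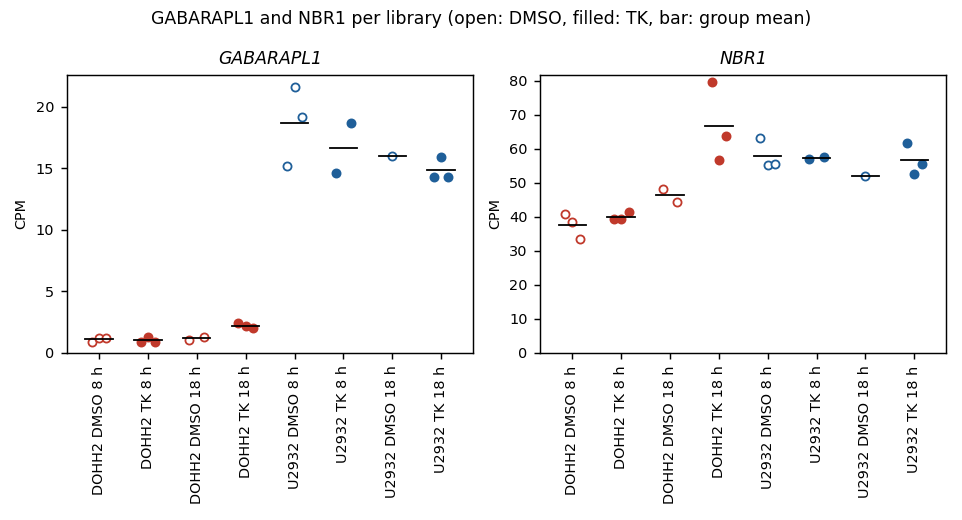
CPM of GABARAPL1 and NBR1 in each library by group (open DMSO, filled TK, bar the group mean; DOHH2 red, U2932 blue). In DOHH2 with TK at 18 h GABARAPL1 reaches 2.0 to 2.40 CPM, far below U2932, while NBR1 reaches 56.8 to 79.5 CPM and overlaps with U2932.

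The 18 h libraries with DMSO in DOHH2 gave GABARAPL1 at 1.04 and 1.27 CPM, a change over time of 0.08 without TK. Whether the TK effect grew from 8 h to 18 h in DOHH2 was tested directly, in a comparison added after these values were seen. The difference of the TK effects was 1.03 for GABARAPL1 (95% interval 0.36 to 1.71), 0.44 for NBR1 (0.05 to 0.83), 0.49 for OPTN (0.01 to 0.97) and 0.31 for MAP1LC3B (-0.02 to 0.64). No member passed (0.0121% of all genes, all adjusted p-values of these 4 at 1). GABARAPL1, NBR1 and OPTN had unadjusted p-values of 0.00449, 0.0295 and 0.0472, 3 of 36 against 4.32% of all genes, and DESeq2 and voom called none (0.0425% of all genes each).

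In U2932 with TK, no member passed between 18 h and 8 h (0.218% of all genes), with 4 of 36 at an unadjusted p under 0.05 against 18.7% of all genes. DESeq2 called none (7.37% of all genes) and voom 3 (9.76%). LAMP2 was at 38.7, 37.1 and 36.2 CPM at 18 h and 45.5 and 61.0 CPM at 8 h (log2 change -0.51, adjusted p = 0.136). It passed in a fit of the U2932 libraries alone (adjusted p = 0.0351). ATG3 (0.32), ATG10 (0.46) and ATP6V1H (0.32) lay higher at 18 h with no overlap. Of the 36 members 20 had no overlap, which was not counted over all genes. No other pathway gene passed edgeR, against 7 of 137 in DESeq2 and 13 in voom (7.37% and 9.76% of all genes). The count was 6 with no filter and 11 with the U2932 libraries alone, fits for which the share of all genes was not counted. The tetraspanin CD63 (log2 change 0.53, adjusted p = 0.0911 in edgeR and 0.0148 in DESeq2) was among those with the smallest p-values.

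The change over time with TK differed between the lines for 2 members (6.69% of all genes), in a second comparison added after the values were seen. GABARAPL1 changed by 1.11 in DOHH2 and -0.17 in U2932 (14.3, 15.9 and 14.3 CPM at 18 h, 14.6 and 18.7 CPM at 8 h), a difference of 1.28 (SE 0.28, adjusted p = 0.0179). NBR1 changed by 0.74 and -0.02 (61.6, 52.6 and 55.5 CPM at 18 h and 57.0 and 57.6 CPM at 8 h in U2932), a difference of 0.76 (SE 0.19, adjusted p = 0.0253). Neither call held without U2932 TK 8 h replicate 2 (adjusted p = 0.179 for both), which leaves 1 library in that group. The NBR1 call was also lost without DOHH2 TK 8 h replicate 1 or 2 or U2932 TK 18 h replicate 2 or 3 (adjusted p = 0.0507 to 0.0766). Both calls held in edgeR without DOHH2 TK 18 h replicate 1, at 1.21 (adjusted p = 0.0204) and 0.61 (adjusted p = 0.0267). In that fit TFEB (-1.08, adjusted p = 0.014) and LAMP2 (0.70, adjusted p = 0.042) were called as well. With all libraries they were at -0.80 (adjusted p = 0.0692) and 0.545 (adjusted p = 0.153).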

How the data were processed

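Per the labels, polyadenylated RNA was sequenced; the authors deposited raw counts for each gene and library, made with STAR, HTSeq and edgeR on GRCh38.p10 per the submitters' processing notes. Tool versions, annotation release and strand setting were not stated, so a gene and its antisense partner cannot be told apart. Rows that name no gene were left out. GENCODE v29 held all 37 members, 34 under the same versioned identifier.

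Counts were fitted with edgeR 4.0.16 (R 4.3.3): TMM scaling, robust quasi-likelihood F test, 1 term per group over all 20 libraries. Genes with 0.288 CPM (10 counts) in 3 libraries were kept, 16478 of 58288, and p-values were Benjamini-Hochberg adjusted over them (threshold 0.05). Depth limits genes near 1 CPM. Alternatives included DESeq2 1.42.0 and limma 3.58.1 (voom).

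Members and lists were chosen with earlier results of these data known. Named were up to 6 members per direction past the threshold by log2 change, or the 4 with the smallest p, and of other pathway genes up to 4 (mean of at least 5 CPM) or 2; further members account for each role. One gene that the rule names is not reported here.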

Additional observations from a re-analysis of the deposited data

Results flagged for a closer look

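GABARAPL1 and NBR1 had a change from 8 h to 18 h with TK that differed between the lines in the test of that difference (edgeR quasi-likelihood test, adjusted p = 0.0179 and 0.0253). DOHH2 minus U2932 was 1.28 for GABARAPL1 and 0.76 for NBR1 on the log2 scale. The comparison was added after the values were seen, and 2 of 36 members passed it, against 6.69% of all genes. The calls did not hold in every fit with 1 library left out, as given above. In the same libraries that the test used, both genes were higher at 18 h in 3 of 3 DOHH2 libraries than in any of the 3 at 8 h. Their U2932 libraries of the 2 times overlapped. No cause was tested.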

How the results depend on the processing

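No named member changed direction in the 12 planned comparisons or the 2 added ones under the alternatives run. Counts of members called between the lines stayed within 1.5 times of 26, 26 and 24. The count for DOHH2 TK against DMSO at 18 h was 0, but 3 in DESeq2, 6 in voom with quality weights and 2 with DMSO of both times as control. For 18 h against 8 h with DMSO in DOHH2 it was 0, but 1 with no filter and 5 in voom. With TK in DOHH2 it was 2, but 11 in voom, 0 with the libraries of one line only, 1 with both first DOHH2 TK libraries left out, and 1 to 3 with 1 library left out. With TK in U2932 it was 0, but 3 in voom and 1 with the libraries of one line only. For the difference of that change between the lines it was 2, but 4 in DESeq2, 8 in voom, 4 with both first DOHH2 TK libraries left out and 0 to 4 with 1 library left out. For that last difference edgeR called 6.69% of all genes and DESeq2 called 2192 of the 16478 genes in the fit. The share of all genes was not counted for voom there. It was also not counted for fits with no filter, of one line only, with a replicate block or with libraries left out. The causes were not tested. Whether replicate numbers pair the libraries was not settled. With 3 pairs, correlations of deviations were mixed, from -0.19 to 0.64. With the number as a replicate block the counts of members called were 27, 26 and 24 between the lines. They were 2 for DOHH2 with TK over time, 2 for its difference between the lines, and 0 in the other comparisons. Leaving out DOHH2 TK 18 h replicate 1 moved the members' median log2 change between the lines with TK at 18 h from 0.11 to -0.00157. Few counts limit ULK2 and, in DOHH2, GABARAPL1.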
